A study of Mus musculus with 3186 samples.

Results

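The platelet-derived growth factor (PDGF) family of the mouse has 4 ligand genes, Pdgfa, Pdgfb, Pdgfc and Pdgfd, and 2 receptor genes, Pdgfra and Pdgfrb. All 6 were taken by symbol from the 19937 genes counted in single cells of the mouse brain vasculature and are described here across endothelial, mural, fibroblast and oligodendrocyte cells. The ligands are secreted as dimers. Chains A and C act mainly through the alpha receptor encoded by Pdgfra, chain D through the beta receptor encoded by Pdgfrb, and chain B through either. In the brain, PDGF-B made by endothelium and held near the vessel by heparan sulphate recruits pericytes, which carry the beta receptor, while PDGF-A drives the precursors of oligodendrocytes, which carry the alpha receptor.

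RNA was read by Smart-seq2, which covers whole transcripts, in 3186 cells sorted from brains of adult C57BL/6 mice 12 to 15 weeks old. A Cldn5(BAC)eGFP transgene, green under the control region of an endothelial tight junction gene, gave 1445 cells on 4 plates (EC3 to EC6). Mice positive for both Pdgfrb(BAC)eGFP and NG2dsRed, where the combination of reporters marks mural cells, gave 1484 cells on 4 plates (Mural3 to Mural6). Pdgfra-H2BGFP mice, whose nuclear reporter marks a perivascular population beside the oligodendrocyte lineage, gave 257 cells on 2 plates (Pdgfra1 and Pdgfra2). Every animal carried a reporter and no other allele or treatment is labelled, so no line is an unmarked control. The labels name no animals, so each line counts as 1 sample and no difference has a test. Because Pdgfra and Pdgfrb drive 2 of the sorts, their differences between lines follow from the sort and are no finding. In what follows a level is the pooled read count of a class scaled to its depth (CPM), with its exact 95% Poisson interval, which covers counting error alone, and ranges are over plates with at least 10 cells of the class. Log2 ratios were computed after adding 1 CPM, and at least 2-fold means a log2 ratio of at least 1 in size.

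Cells were grouped without the 6 genes, the reporter genes or any listed pathway gene. Classes were named from marker genes, and each was read in its own line: 403 arterial-like, 738 capillary-like and 205 venous-like endothelial cells, 1131 pericyte-like and 180 smooth muscle-like cells, 72 fibroblast-like and 150 oligodendrocyte-like cells, 11 microglia-like cells and 5 oligodendrocyte progenitor-like cells. The endothelial-like class joins the 3 endothelial zones over all lines (1384 cells). It includes 6 Pdgfra-H2BGFP cells of a Ptgds-led capillary-like sub-cluster with only 94.8 CPM of summed endothelial markers and 1577 CPM of astrocyte markers. The Cldn5(BAC)eGFP cells of that sub-cluster had 39147 CPM of endothelial markers. The 8 endothelial markers summed to 42923 CPM in endothelial-like cells and the 8 pericyte markers to 61142 CPM in pericyte-like cells. The 8 smooth muscle markers summed to 63219 CPM in smooth muscle-like cells and the 8 fibroblast markers to 33439 CPM in fibroblast-like cells. The 8 oligodendrocyte markers summed to 112195 CPM in oligodendrocyte-like cells. These markers also named the classes, so the sums describe the naming and are no separate check. Cells had 99905 to 1606954 reads (median 350339), and 220 cells (6.91%) lay in clusters that took no name. Within the pericyte-like class a sub-cluster of 140 cells, led by the GABA receptor gene Gabrr1, had 9850 CPM of summed smooth muscle markers against 4421 in the other 991 pericyte-like cells. It is given apart below, a split made after the values were seen.

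The promoters of the ligands that were at least 2-fold higher in smooth muscle-like than in pericyte-like cells are shown first, since 3 of those 4 ligands have an entry among the RefSeq windows (GRCm38.p6, the mm10 assembly). Of the 6 genes, Pdgfa, Pdgfc, Pdgfd and Pdgfra were matched there. Each line gives the 250 bases before the annotated start, read 5′ to 3′ on the gene's strand. Capitals mark matches on either strand to the CArG box, the sequence bound by serum response factor in many smooth muscle genes, or to GGGCGG, the core of Sp1 sites. TATAAA and GGAAG, the core of ETS sites, were searched too on both strands and are not capitalised.
Pdgfa, chr5:138994945-138995194, minus strand: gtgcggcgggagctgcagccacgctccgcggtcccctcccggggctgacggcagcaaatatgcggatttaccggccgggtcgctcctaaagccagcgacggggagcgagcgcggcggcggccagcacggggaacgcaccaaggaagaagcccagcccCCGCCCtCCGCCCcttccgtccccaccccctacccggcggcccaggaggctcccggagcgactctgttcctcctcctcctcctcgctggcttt
Pdgfc, chr3:81036166-81036415, plus strand: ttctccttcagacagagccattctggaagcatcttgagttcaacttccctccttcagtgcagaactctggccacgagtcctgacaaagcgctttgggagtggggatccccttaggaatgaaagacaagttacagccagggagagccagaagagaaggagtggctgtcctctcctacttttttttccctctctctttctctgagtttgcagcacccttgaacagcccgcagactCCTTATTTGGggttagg
Pdgfd, chr9:6168236-6168485, plus strand: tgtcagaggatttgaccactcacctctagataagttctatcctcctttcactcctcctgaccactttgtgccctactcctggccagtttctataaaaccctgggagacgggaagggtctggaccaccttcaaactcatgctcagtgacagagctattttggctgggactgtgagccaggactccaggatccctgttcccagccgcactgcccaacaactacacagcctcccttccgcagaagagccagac
The Pdgfc window held a CArG box whose first base lay 17 bases before the start, and 482 of 32851 RefSeq windows of this length (1.47%) held such a box. The Pdgfa window held 2 matches to GGGCGG, as did 32.7% of windows at least once. Neither motif was matched in the Pdgfd window, which held TATAAA starting 160 bases before the start, a motif of 12.4% of windows. Each of the 3 windows held 2 matches to GGAAG, found in 64.1% of windows. These matches are letters in a window and say nothing of use by a factor. Pdgfa has a further annotated start, whose window is not shown.

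Endothelial-like cells carried Pdgfb, the ligand that recruits pericytes, at nearly the same level in every zone. Arterial-like cells had 273, 181, 214 and 177 CPM on plates EC3, EC4, EC5 and EC6, and 212 CPM in all (209.8 to 215 by counting). In the capillary-like zone the same plates gave 199.9, 234, 221 and 174 CPM, with 206 CPM in all. Venous-like cells had 274, 209.6, 177 and 194 CPM, and 215 CPM in all. The plate ranges of the 3 zones overlapped, plates EC3 and EC6 differed more than zones did, and the order of the zones is not told apart from plate spread. The log2 ratio was -0.02 for arterial-like over venous-like cells (-0.21 to 0.28 within plates) and 0.04 for arterial-like over capillary-like cells (-0.37 to 0.45). Over the 7 named sub-clusters of endothelium in this line Pdgfb stayed between 177 and 249.9 CPM. Pdgfb lies on chromosome 15 from 79995874 to 80014977 on the minus strand (mm10, GENCODE M21).

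The RNA was uneven from cell to cell within each zone. With every cell thinned to 90000 reads, a Pdgfb read was found in 59.3% of arterial-like, 46.2% of capillary-like and 52.2% of venous-like cells (64.0%, 53.3% and 56.6% unthinned). The cells with a read had a median Pdgfb level of 259 CPM in the arterial-like, 281 CPM in the capillary-like and 294 CPM in the venous-like class, and the highest cell, a capillary-like one, held 2588 CPM. The share of cells with a read varied more between zones than the pooled level did.

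Pdgfd, a ligand of the beta receptor that needs proteolytic release of its CUB domain, was graded over the same zones. Arterial-like cells had 77.4, 104, 138 and 115 CPM on plates EC3 to EC6, and 109 CPM in all (107 to 111). Capillary-like cells had 59.96, 68.99, 78.0 and 85.5 CPM, and 72.8 CPM in all. Venous-like cells had 42.96, 80.6, 40.1 and 75.6 CPM, and 58.2 CPM in all. Arterial-like cells were above venous-like and capillary-like cells of the same plate on 4 of 4 plates, but the plate ranges overlapped in each pair and both pooled differences stayed under 2-fold (log2 ratios 0.90 and 0.58). With 1 plate left out the arterial-like over venous-like log2 ratio of Pdgfd ranged from 0.60 to 1.10, the latter without plate EC4. It also passed 2-fold at 1.15 with clusters from a random 0.5 of the genes, 1.18 at clustering resolution 0.5 and 1.56 at resolution 2. Venous-like and capillary-like cells were not apart beyond plate spread (log2 ratio -0.32, from -0.94 to 0.22 within plates). Within the arterial-like class, the sub-cluster led by Fbln5 and Cytl1 (172 cells) had 141 CPM (138 to 144) and the one led by Cd300lg and Sez6 (231 cells) 85.8 CPM (83.9 to 87.8). Pdgfd lies on chromosome 9 from 6168584 to 6378850 on the plus strand.

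Pdgfa, a ligand of the alpha receptor, was the lowest of the 3 endothelial ligands. Its pooled level was higher in arterial-like and venous-like than in capillary-like cells. Arterial-like cells had 22.1, 14.9, 35.9 and 44.4 CPM on plates EC3 to EC6, and 30.03 CPM in all. Venous-like cells had 23.0, 43.2, 38.6 and 14.2 CPM, and 30.3 CPM in all. Capillary-like cells had 9.58, 10.3, 8.18 and 4.77 CPM, and 8.22 CPM in all, below every plate of both other zones. The log2 ratio over capillary-like cells was 1.75 for arterial-like (0.50 to 2.98 within plates) and 1.76 for venous-like cells (1.18 to 2.11). Among the 6 genes Pdgfa was the only one of the 3 with at least 5 CPM to be at least 2-fold apart in either comparison, beside 8.32% of 10089 genes (5.2% higher and 3.11% lower) for arterial-like and 9.6% of 10078 genes (5.17% higher and 4.43% lower) for venous-like over capillary-like cells. Between arterial-like and venous-like cells 0 of the 3 were 2-fold apart, beside 13.8% of 10222 genes.

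The capillary level of Pdgfa was not even. The capillary-like sub-cluster led by Fgfbp1 and Apln (269 cells), Apln being the apelin ligand gene, had 1.16 CPM (0.951 to 1.39), and the one led by Zswim5 (141 cells) 3.23 CPM. The capillary-like sub-clusters led by Ptgds (178 cells) and Kcnj15 (150 cells) had 14.8 CPM and 19.1 CPM, while Pdgfb in the same 4 sub-clusters ranged from 177 to 249.9 CPM. Only 32 of 738 capillary-like cells had a Pdgfa read, and 1 cell held 17.4% of the reads. The other zones were uneven too. Within the arterial-like class the Fbln5-led sub-cluster had 43.4 CPM of Pdgfa. The Cd300lg-led one (231 cells) had 20.3 CPM, near the Kcnj15-led capillary-like one. Venous-like reads came from 21 of 205 cells, and 1 cell held 18.2% of them. Pdgfa lies on chromosome 5 from 138976014 to 138997370 on the minus strand.

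Per kilobase of exon the ligands ranked Pdgfb, Pdgfd, Pdgfa in each endothelial zone. In arterial-like cells the levels per kilobase were 51.0 CPM for Pdgfb, 34.6 CPM for Pdgfd and 9.63 CPM for Pdgfa. Pdgfc, the other ligand with a CUB domain, had at most 0.302 CPM in a zone and was read in 5 of 1384 endothelial-like cells. Pdgfb and Pdgfd were read together in 142 of 403 arterial-like cells (35.2%, exact binomial interval 30.6 to 40.1), against 135 of 738 capillary-like (18.3%, 15.6 to 21.3) and 38 of 205 venous-like cells (18.5%, 13.5 to 24.5). Thinned to the same depth the shares were 30.3%, 15.2% and 14.6%. Unthinned, Pdgfd was read with or without Pdgfb in 50.9% of arterial-like, 28.9% of capillary-like and 29.8% of venous-like cells. Among cells with a Pdgfb read the Pdgfd shares were 55.0%, 34.4% and 32.8%, and among cells without one 43.4%, 22.6% and 25.8%.

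**Figure D1:**
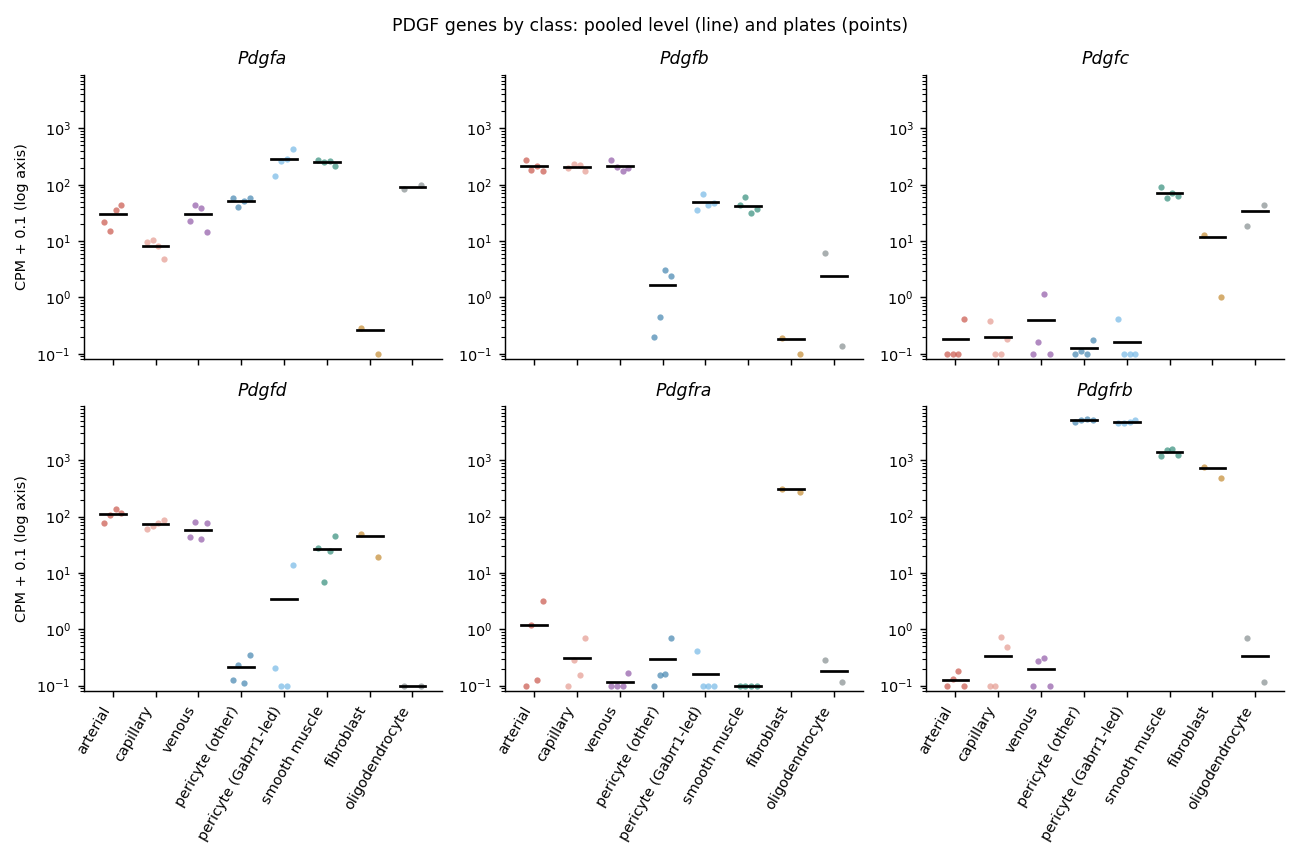
Levels of the 6 PDGF genes in CPM plus 0.1 on a log axis, by class; the black line is the pooled level and each point a plate with at least 10 cells. Pdgfb is level over the 3 endothelial zones (206 to 215 CPM), Pdgfa peaks in the Gabrr1-led pericyte-like sub-cluster and smooth muscle-like cells (286 and 252 CPM), Pdgfc in smooth muscle-like cells (70.1 CPM), and both receptors are present in fibroblast-like cells.

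Against pericyte-like cells, endothelial-like cells had far more of the beta receptor ligands and less Pdgfa. Pdgfb had 209.9 CPM against 7.76 CPM (log2 ratio 4.59), and 5.30 to 5.31 on the 2 mural plates that held at least 10 cells of each class. Pdgfd had 84.1 CPM against 0.530 CPM (log2 ratio 5.80), with 6.58 to 7.34 on the shared plates. Pdgfa had 18.2 CPM against 82.4 CPM (log2 ratio -2.12), with -5.74 to -3.14 on the shared plates. Of the 4 ligands, 2 were at least 2-fold higher and 1 at least 2-fold lower, beside 16.2% and 18.8% (35% in either direction) of 11020 genes with at least 5 CPM in either class. Most endothelial-like and all pericyte-like cells came from different lines, so in the pooled levels class and line cannot be told apart. The shared plates, Mural3 and Mural5, compare both classes within the mural line, but held 10 endothelial-like cells each. In the mural line, summed pericyte markers were 1243, 311 and 718 CPM in the Ptgds-led, Fgfbp1-led and Fbln5-led endothelial sub-clusters. Over all endothelial-like cells they were 26.3 CPM. The part of this pericyte RNA in the shared-plate ratios was not tested. Without the Gabrr1-led sub-cluster the Pdgfa log2 ratio was -1.48, at a pericyte level of 52.3 CPM, and the Pdgfb log2 ratio was 6.38, at a pericyte level of 1.54 CPM, where 41.5% of the Pdgfb reads came from 1 of 991 cells.

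Among mural cells, all 4 ligands were higher in smooth muscle-like than in pericyte-like cells, which shared the line and the 4 plates. Pdgfa had 275, 251, 268 and 217 CPM in smooth muscle-like cells on plates Mural3 to Mural6, and 252 CPM in all (248 to 256). In pericyte-like cells it had 68.9, 72.1, 82.9 and 101 CPM, and 82.4 CPM in all. The ranges did not overlap, the pooled level was 3.06-fold higher (log2 ratio 1.10 to 1.98 within plates), and the log2 ratio was 2.24 without the Gabrr1-led sub-cluster. With every cell thinned, 75.0% of smooth muscle-like and 23.4% of pericyte-like cells had a Pdgfa read. At least 2-fold higher were 4 of 4 ligands, beside 12.5% of 10804 genes (29.7% in either direction).

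Pdgfc was read in smooth muscle-like cells and hardly in the other mural cells. It had 91.3, 58.8, 70.9 and 62.6 CPM on plates Mural3 to Mural6, and 70.1 CPM in all (68.1 to 72.2). Pericyte-like cells had 0.029 CPM from 11 reads, and the log2 ratio was 5.89 to 6.48 within plates. Its reads came from 47 of 180 smooth muscle-like cells (26.1%), and the median of those cells was 186 CPM. Pdgfc spans chromosome 3 from 81036416 to 81214040 on the plus strand.

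Pdgfd was also read in smooth muscle, more unevenly. It had 27.8, 6.89, 24.8 and 44.5 CPM on plates Mural3 to Mural6, and 26.5 CPM in all, against 0.530 CPM in pericyte-like cells. Mural4 was the lowest plate and still above the highest pericyte plate, at 1.76 CPM. The reads came from 24 of 180 cells, and 1 cell held 12.8% of them.

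Pdgfb, known from endothelium, was read in smooth muscle as well. Smooth muscle-like cells had 43.2, 59.9, 32.0 and 37.5 CPM on plates Mural3 to Mural6, and 42.5 CPM in all (40.9 to 44.1). Reads came from 34 of 180 cells, and 1 cell held 9.86% of them. The level was 20.2% of that in endothelial-like cells, while the 8 endothelial markers summed to 11.2 CPM, 0.026% of their endothelial sum. All 8 of these markers had at least 1 read in smooth muscle-like cells, and Cldn5, the most abundant of them in endothelium, had 0.499 CPM against 27211 CPM in endothelial-like cells. Mixed wells, those holding markers of another class at 10% or more of its level, were only 2 of the 180 cells. With them left out Pdgfb stood at 41.96 CPM, a setting that could hardly move the level. The source of these Pdgfb reads was not tested.

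The Gabrr1-led pericyte-like sub-cluster shared the ligands of smooth muscle-like cells in part. Its Pdgfa was 145, 258, 280.1 and 434 CPM on plates Mural3 to Mural6, and 286 CPM in all, against 39.8 to 58.7 CPM in the other pericyte-like cells. Its Pdgfb was 35.3, 68.4, 43.6 and 47.5 CPM, and 49.9 CPM in all, against 0.098 to 2.95 CPM. Both genes were above the other pericyte-like cells on 4 of 4 plates and not apart from smooth muscle-like cells beyond plate spread (log2 ratios of smooth muscle over this sub-cluster -0.18 and -0.23). Pdgfc had 3 reads, 0.062 CPM, against 70.1 CPM in smooth muscle-like cells. Pdgfrb, at 4747 CPM, lay within 2-fold of the other pericyte-like cells at 5105 CPM. Of the 4 ligands, Pdgfa and Pdgfb passed 5 CPM and both were at least 2-fold above the other pericyte-like cells, beside 8.49% of 10598 genes (18% in either direction). The endothelial markers summed to 59.1 CPM here, 0.138% of their endothelial sum, and the smooth muscle markers to 9850 CPM, against 63219 CPM in smooth muscle-like cells. The part of those smooth muscle transcripts in the ligand levels was not tested.

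**Figure D2:**
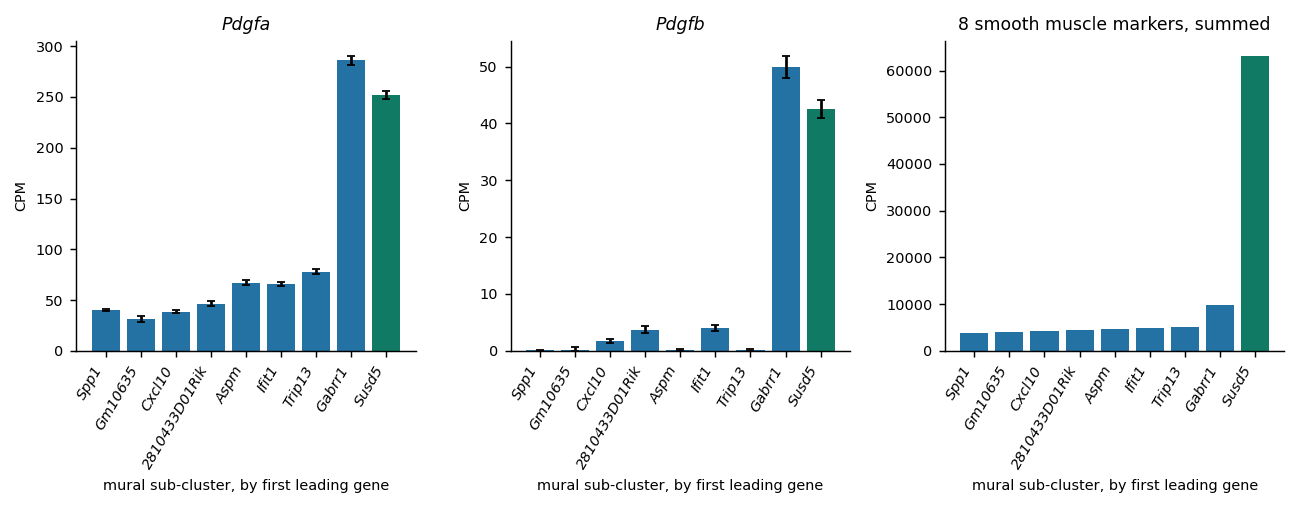
Pdgfa and Pdgfb in CPM, and the summed level of 8 smooth muscle markers in CPM, in the 9 named sub-clusters of mural cells (blue pericyte-like, green smooth muscle-like) ordered by the marker sum; error bars are 95% Poisson intervals. Pdgfa and Pdgfb rise together in the Gabrr1-led sub-cluster (286 and 49.9 CPM) and the smooth muscle-like cells (252 and 42.5 CPM), while the other pericyte-like sub-clusters keep Pdgfa between 31.0 and 77.9 CPM and Pdgfb at 4.02 CPM or less.

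Smooth muscle-like cells were clustered once more, without the PDGF genes, into 6 groups of 10 to 39 cells, and the ligands split among them. Pdgfc ranged from 7.7 CPM in the group led by haemoglobin genes, Alas2 and Kcnj8 (35 cells, 101 CPM of erythroid markers) to 169.8 CPM in the group led by Pappa2 (28 cells). Pdgfd ranged from 0.296 CPM in the Pappa2-led group to 49.1 CPM in the Zfp472-led (39 cells) and Tshz2-led (10 cells) groups. Pdgfa varied less, from 204 to 361 CPM. No plate ranges are given for single groups, so these are values of pools of cells.

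The beta receptor itself was uneven in smooth muscle. The Zfp472-led and Cenpo-led groups, the 2 with the most Cnn1, a calponin of contractile smooth muscle (915 and 912 CPM), had 679.9 and 804 CPM of Pdgfrb. The other 4 groups had 14.0 to 321 CPM of Cnn1 and 1578 to 2139 CPM of Pdgfrb. Pericyte markers summed to 651 and 1031 CPM in the Cnn1-high groups and to 1350 to 7517 CPM in the other 4, and smooth muscle markers to 75739 and 80693 CPM against 44126 to 68410 CPM. The part of these markers in the Pdgfrb levels was not tested. By plate, the Cnn1-high groups (69 cells) had 703, 853, 677 and 726 CPM of Pdgfrb on Mural3 to Mural6, and the others (111 cells) 1466, 1769, 2005 and 1869 CPM. The plate ranges did not overlap, though this split was chosen after the values were seen and the sort required a Pdgfrb reporter in every cell.

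**Figure D3:**
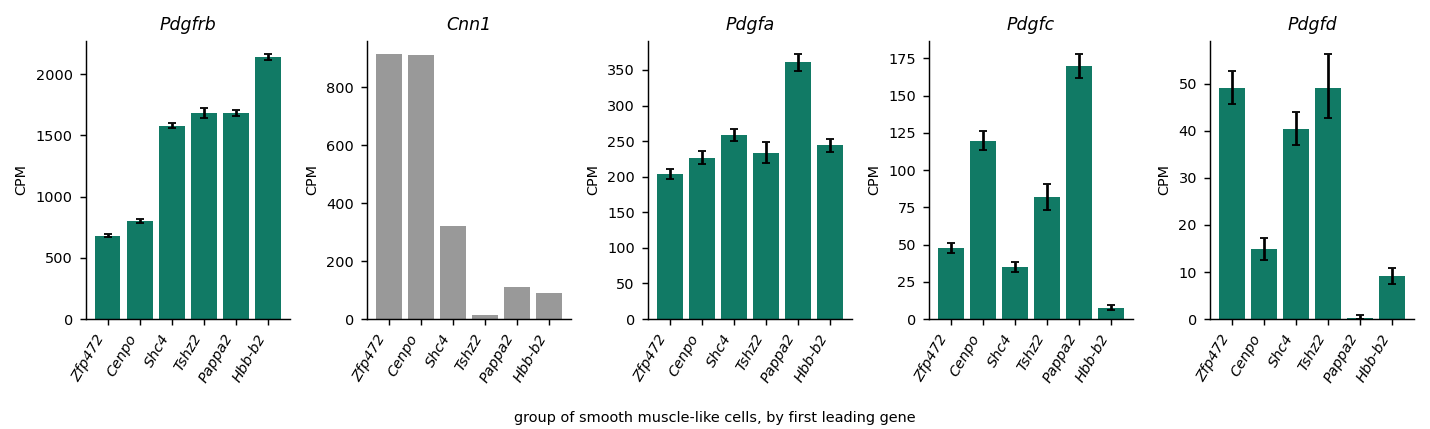
Pdgfrb, Cnn1, Pdgfa, Pdgfc and Pdgfd in CPM in the 6 groups of smooth muscle-like cells, named by their first leading gene and ordered by Pdgfrb; error bars are 95% Poisson intervals (none for Cnn1). The 2 groups highest in Cnn1 are lowest in Pdgfrb (679.9 and 804 CPM), and Pdgfc and Pdgfd peak in different groups.

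Outside the vessel wall proper, the ligands differed between the 2 main classes of the Pdgfra-H2BGFP line. Oligodendrocyte-like cells had Pdgfa at 82.5 and 97.6 CPM on plates Pdgfra1 and Pdgfra2, and 91.98 CPM in all, with a read in 97 of 150 cells. Fibroblast-like cells had 8 Pdgfa reads, 0.164 CPM, a log2 ratio of -6.32 (-6.62 to -6.14 within plates). Pdgfc was read in 30 of 150 oligodendrocyte-like cells, at 18.7 and 42.8 CPM on the plates.

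Fibroblast-like cells carried Pdgfd in place of Pdgfa. Pdgfd had 47.98 CPM on Pdgfra1 and 19.1 CPM on Pdgfra2, with a read in 24 of 72 cells, and 0 reads in 150 oligodendrocyte-like cells, which makes it at least 1293-fold higher by a floor of 3 counts over that class. Pdgfc in fibroblast-like cells rested on 5 cells, 1 of which held 39.0% of the reads, and its plates had 12.9 and 0.938 CPM. The log2 ratio of Pdgfc over oligodendrocyte-like cells, -1.47, was -4.50 without plate Pdgfra1 and -0.51, under 2-fold, without plate Pdgfra2. Set beside pericyte-like cells of the mural line, fibroblast-like cells lacked Pdgfa as well (log2 ratio -6.16). For fibroblast-like over oligodendrocyte-like cells, 1 ligand of 4 was at least 2-fold higher and 2 lower among the 3 with at least 5 CPM, beside 34.8% and 18.4% (53.2% in either direction) of 11669 genes. For fibroblast-like over pericyte-like cells, 2 of 4 were higher and 2 lower, beside 19.3% and 17% (36.3% in either direction) of 11485 genes. Pdgfc, 1 of the 2 higher, went from a log2 ratio of 3.61 to 0.91, under 2-fold, without plate Pdgfra1. Pdgfb, 1 of the 2 lower, went from a log2 ratio of -3.02 to -0.45 at clustering resolution 0.5 and -0.82 at a pseudocount of 10 CPM.

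The small classes add 2 values. Microglia-like cells had Pdgfb at 85.6 CPM (78.8 to 92.8) from 6 of 11 cells, and 1 cell held 44.2% of the reads. Their endothelial markers summed to 70.9 CPM, 0.165% of the endothelial sum, and 3 of the 8 were at 0. Oligodendrocyte progenitor-like cells had Pdgfa at 72.6 CPM in 3 of 5 cells.

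Both receptors are given by class as a description, since they chose the cells. Pdgfrb, on chromosome 18 from 61045150 to 61085061, had 4696, 4997, 5371 and 5098 CPM in pericyte-like cells on plates Mural3 to Mural6. Smooth muscle-like cells had 1172, 1500, 1556 and 1240 CPM on the same plates, below pericyte-like cells on 4 of 4 plates (log2 ratio -1.88). Every cell of both mural classes had a Pdgfrb read. The eGFP transcript, which the same control region drives in these mice, went the same way, with 2450 CPM in pericyte-like and 726 CPM in smooth muscle-like cells. In endothelial-like cells Pdgfrb had 3.37 CPM, and 79.1% of those reads came from 1 cell. In the Cldn5(BAC)eGFP zones Pdgfrb stayed at or under 0.242 CPM.

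Fibroblast-like cells held both receptors. Pdgfrb, which did not mark the sort of these mice, had 751 and 492 CPM on plates Pdgfra1 and Pdgfra2, against 0.231 CPM in oligodendrocyte-like cells of the same plates (log2 ratio 9.20, 8.89 to 8.92 within plates). Pericyte markers summed to 3413 CPM in fibroblast-like cells against 1.61 CPM in oligodendrocyte-like cells, and 14 of 72 fibroblast-like cells counted as mixed wells. With mixed wells left out Pdgfrb stood at 788 CPM, though cells under the 10% limit can still hold pericyte markers. The part of pericyte RNA in this level was not tested. Pdgfra, on chromosome 5 from 75152292 to 75198215, had 307 and 275 CPM on the plates, and 304 CPM in all, against 0.081 CPM in oligodendrocyte-like cells. All 5 oligodendrocyte progenitor-like cells, sorted by the Pdgfra reporter, had Pdgfra, at 1143 CPM (1113 to 1174). In this cluster's cells of other lines, Pdgfra had 9.93 CPM in 13 Cldn5(BAC)eGFP cells and 0 reads in 7 mural-line cells. Progenitor markers summed to 102 and 455 CPM there, against 10459 CPM in the 5 cells. Smooth muscle-like cells had 0 Pdgfra reads in 180 cells, which at this depth allows a share of cells with a read of up to 1.67% by a floor of 3 counts.

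Cell by cell, 55 of 72 fibroblast-like cells (76.4%, exact binomial interval 64.9 to 85.6) had reads of both receptors, 3 of Pdgfra alone, 11 of Pdgfrb alone and 3 of neither. The plates differed: on Pdgfra1 44 of 48 cells had both, and on Pdgfra2 11 of 24. Median depth was 903886 reads on Pdgfra1 and 179451 on Pdgfra2. With every cell thinned to 90000 reads a Pdgfra read was left in 89.6% of cells on Pdgfra1 and 45.8% on Pdgfra2, and a Pdgfrb read in 93.8% and 79.2%. Fibroblast markers also stood lower on Pdgfra2, at 16413 CPM against 35526 CPM, and their part in the plate difference was not tested.

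**Figure D4:**
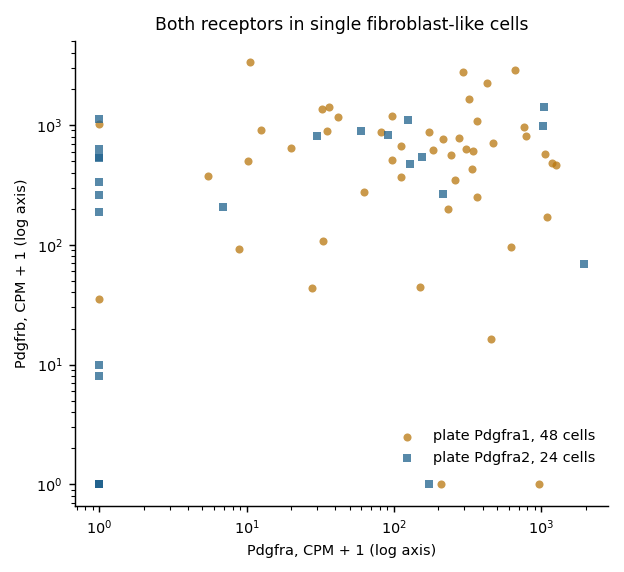
Pdgfra and Pdgfrb in each of the 72 fibroblast-like cells, in CPM plus 1 on log axes, with points on an axis at 1 having no read. Most cells of plate Pdgfra1 hold both receptors (44 of 48), while 12 of 24 cells of plate Pdgfra2 have no Pdgfra read.

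Genes that act around the receptors were taken from 6 lists with 87 genes, all in the files: ligand processing, ligand binding and retention, receptor partners and relatives, receptor adaptors and lipid enzymes, kinase cascade, and receptor shut-off. Of the 79 with at least 5 CPM, 21 were at least 2-fold higher and 27 lower in endothelial-like than in pericyte-like cells, beside 16.2% and 18.8% of all genes, with a median log2 ratio of -0.15 against -0.11. S1pr1, a sphingosine phosphate receptor, had 1482 against 3.32 CPM, and Plaur, the urokinase receptor, 31.3 against 1.87 CPM. Plcg2, a phospholipase, had 31.8 against 2.38 CPM, but a log2 ratio of -0.53 to 3.24 on the 2 shared plates. Higher in pericyte-like cells were Sdc2, a heparan sulphate proteoglycan (2.60 against 859 CPM), Lrp1, a co-receptor of the beta receptor (8.02 against 832 CPM), and Rgs5, a G protein regulator of pericytes (49.2 against 4127 CPM, a log2 ratio of -6.36 that was -1.40 to -1.23 on the shared plates).

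By list, the counts for endothelial-like over pericyte-like cells stand beside 16.2% of all genes higher and 18.8% lower. Of 8 receptor partners and relatives tested, 4 were higher and 4 lower. Nrp1, a co-receptor, had 448 against 144 CPM and the receptor-like protein gene Pdgfrl 0.434 against 33.7 CPM. Among 21 adaptors and lipid enzymes 6 were higher and 7 lower, among 20 kinase cascade genes 4 and 5, and among 15 shut-off genes 3 and 6. Spry2 and Spry4, feedback inhibitors of receptor tyrosine kinases, were both in the lower group (9.88 against 141 CPM and 15.2 against 203 CPM). The 3 higher shut-off genes were Dusp6 (250 against 116 CPM), Ptprj (21.2 against 8.64 CPM) and Slc9a3r2 (1320 against 357 CPM). Of 6 ligand processing genes 3 were higher and 2 lower, among them Plat, the tissue plasminogen activator that releases PDGF-C (380.4 against 1362 CPM). Of 9 binding and retention genes 1 was higher and 3 lower.

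Along the endothelial zones, counts of listed genes are set beside the shares over all genes and are not read as a trait of the lists. Between arterial-like and venous-like cells 8 of 74 were higher and 1 lower, beside 7.41% and 6.35% of all genes. The named ones were Spry4 (27.6 against 2.68 CPM), Plat (565 against 258 CPM) and Mapk3, the kinase ERK1 (225 against 106 CPM). That count rested on the plates: it was 9 in either direction over all 4, and 12 to 16 when 1 was left out, with 16 without EC6. Over capillary-like cells, arterial-like cells had 7 of 74 higher and 1 lower, beside 5.2% and 3.11% of all genes, with Plcg2 at 70.3 against 7.37 CPM and Prkcd, a protein kinase C, at 67.2 against 18.9 CPM (log2 ratio -0.13 to 3.15 within plates). Spry4 had a log2 ratio of 1.26 there, from -0.33 to 2.52 within plates. Venous-like over capillary-like cells gave 3 of 71 higher and 3 lower, beside 5.17% and 4.43% of all genes, with Plcg2 higher (33.3 CPM), Cbl, a ubiquitin ligase for active receptors, lower (9.02 against 24.6 CPM) and Nrp1 lower (271 against 553 CPM).

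In smooth muscle-like against pericyte-like cells 10 of 78 listed genes were higher and 22 lower, beside 12.5% and 17.2% of all genes, with a median of -0.46 against -0.14. Adaptors and lipid enzymes had 0 higher and 8 lower of 19, led by the kinase Fyn (14.1 against 70.8 CPM), and receptor partners 1 higher and 5 lower of 7. Thbs1, thrombospondin, had 251 against 0.503 CPM, and Prkcd 122 against 10.4 CPM. Lower were Pdgfrl (3.01 against 33.7 CPM), Spry2 (19.5 against 141 CPM) and the proton-sensing receptor Gpr4 (30.6 against 163 CPM). Srf, picked after its value was seen, had 58.4 against 19.1 CPM, and its part in any ligand level was not tested.

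Fibroblast-like cells stood above oligodendrocyte-like cells in most listed genes. Of 84 tested, 48 were higher and 5 lower, beside 34.8% and 18.4% of all genes, with a median of 1.41 against 0.35. Binding and retention genes had 9 of 12 higher, receptor partners 8 of 9 and shut-off genes 10 of 15. Lrp1 had 1782 against 1.88 CPM, Pdgfrl 324 against 0.058 CPM and Thbs1 323 against 0.543 CPM. Higher in oligodendrocyte-like cells were the adaptor Gab1 (63.5 against 324 CPM), Fyn (14.0 against 45.0 CPM) and the sulphatase Sulf2 (106 against 255 CPM). Plate Pdgfra1 gave 48 of 72 fibroblast-like cells and Pdgfra2 117 of 150 oligodendrocyte-like cells, so pooled values mix plate with class. Within plates the log2 ratios were 9.70 to 9.98 for Lrp1, 7.52 to 8.29 for Pdgfrl and 6.52 to 8.34 for Thbs1. They were -3.55 to -2.64 for Gab1, -2.83 to -0.82 for Fyn and -1.21 to -1.17 for Sulf2.

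Against pericyte-like cells, with line and class changing together, fibroblast-like cells had 25 of 84 listed genes higher and 14 lower, beside 19.3% and 17% of all genes. Thbs1 (323 against 0.503 CPM), the sulphatase Sulf1 (303 against 2.45 CPM) and A2m, a protease inhibitor that binds PDGF (78.7 against 0.293 CPM), were highest. Rgs5 (6.39 against 4127 CPM), the scaffold Slc9a3r1 (12.5 against 220.3 CPM) and Gab1 (63.5 against 313 CPM) were lowest. Receptor partners had 7 of 9 higher and 2 lower.

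The Gabrr1-led sub-cluster was near the other pericyte-like cells in these lists, with 6 of 75 genes higher and 4 lower, beside 8.49% and 9.5% of all genes. Nrp1 was higher on each plate (319 against 119 CPM, log2 ratio 1.42). The exchange factor gene Sos1 (log2 ratio 1.41) and Stat5a (1.11) were higher in the pool but not on every plate. Gpr4 (log2 ratio -1.57) and the adaptor gene Gab2 (-1.20) were lower on 4 of 4 plates.

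**Figure D5:**
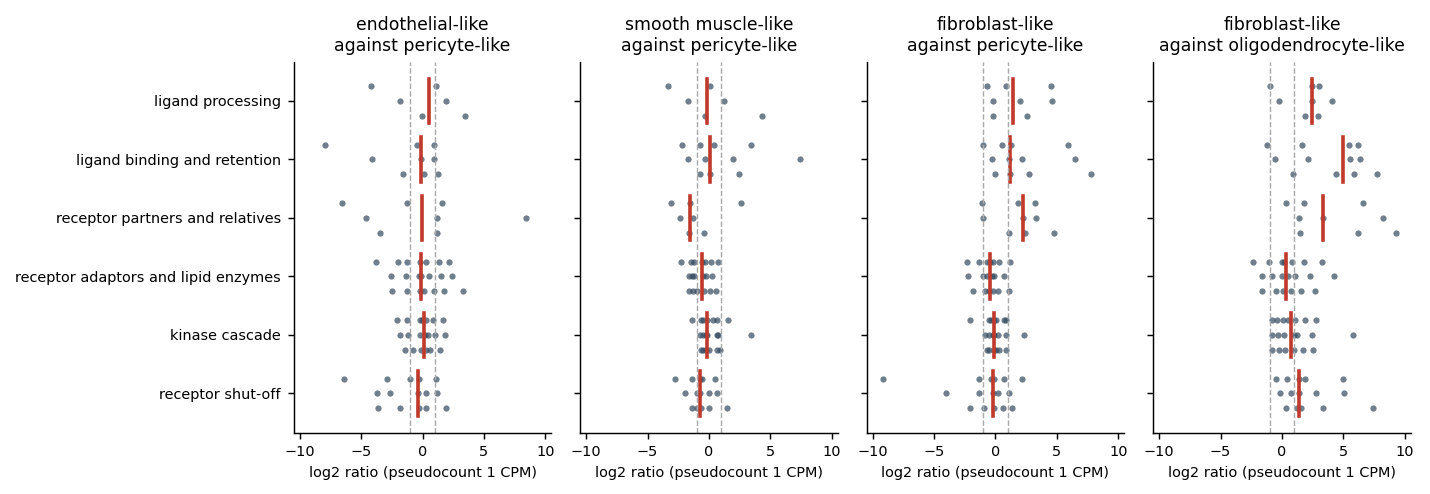
Log2 ratio of each listed PDGF pathway gene with at least 5 CPM (points) and the median of its list (red line), for 4 comparisons; dashed lines mark 2-fold. Fibroblast-like cells exceed oligodendrocyte-like cells in 48 of 84 genes, while smooth muscle-like cells are lower than pericyte-like cells in 22 of 78.

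The genes whose pattern over the 7 classes of at least 20 cells was most like each PDGF gene were ranked by Pearson's r of log2(CPM + 1) among 10153 genes. With 7 points that share depth and line, r is a description. For Pdgfrb they were Cd248 (r = 0.999; 867 CPM in pericyte-like cells), Hrasls and Enpep, and 159 genes exceeded an r of 0.95. For Pdgfra they were Ebf2, Necab1 and Col8a2, with 44.8, 90.8 and 52.3 CPM in fibroblast-like cells, and 154 genes exceeded 0.95. For Pdgfb they were Slc4a1ap, Caskin2 and Tmem123 (r = 0.991 to 0.994), and for Pdgfd the transcription factor gene Klf4 (r = 0.990; 173 CPM in arterial-like and 3.92 CPM in pericyte-like cells), Fam129a and Adam17. Pdgfa had Ndufaf5, D6Wsu163e and Fam210a (r = 0.967 to 0.979), and Pdgfc had Bcl9, Ptprf and Slc16a7 (r = 0.975 to 0.976), the last with 61.0 CPM in smooth muscle-like and 32.9 CPM in oligodendrocyte-like cells. Fewest genes came near the ligands Pdgfa and Pdgfc, with 8 and 9 over 0.95.

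Overlapping genes touch 5 of the 6: annotated genes on the opposite strand lie within Pdgfa, Pdgfb, Pdgfc, Pdgfd and Pdgfra, and Smart-seq2 keeps no strand, so their reads cannot be told apart where exons overlap. In pooled classes, fewer cells with a transcript and less RNA per cell cannot be told apart from the level alone, and the shares above carry that information only to the depth of each cell.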

How the data were processed

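Per the labels, single cells of mouse brain were sorted into 384-well plates and read by Smart-seq2. The submitters' processing notes name STAR 2.4.2a and mm10, with the gene counter, annotation and cell filters not given in the sources used here. Whole reads per gene make up the deposited count table, which covers 3186 cells. The authors' scaled table, treated as a score since each cell sums to 499421 to 501418, served as an alternative. A minimum of 500 genes removed 0 cells. Clustering (scanpy 1.11.5, igraph 0.11.9, Leiden, resolution 1, seed 1, 2000 variable genes, 30 components, 15 neighbours) left out the PDGF, reporter and listed genes; endothelial and mural cells were clustered again. A cluster took a name when over 50% of a set's markers reached 50% of the highest cluster's level and at least 3 had 20 CPM. It lost the name (for endothelial and mural cells, at the second clustering only) where its 10 leading genes held 2 or more markers of a different set and fewer of the named one. Of 18 marker sets, those below named no cluster. Their highest sums in the classes given above were 3454 CPM for perivascular macrophages, 1287 CPM for astrocytes, 276 CPM for neurons, 299.6 CPM for ependyma, 86.5 CPM for choroid plexus, 0.983 CPM for T or NK cells, 1.27 CPM for neutrophils and 19.7 CPM for erythroid cells. Clusters without a name are not in these sums. Among them, T or NK markers reached 127 CPM in the Ccl5-led sub-cluster and erythroid markers 8456 CPM in 8 cells led by haemoglobin genes. The markers Trac, S100a8, Ly6g, Hba-a1, Hba-a2 and Hbb-bt were not found under these symbols. Doublets were not removed; 302 mixed wells (9.48%) were kept, with an alternative that drops them. Intervals are exact (Poisson, and Clopper-Pearson for shares) at 95%; reads carry no molecular tags. Named genes are the 6 members, the 3 most alike to each, and up to 3 listed genes at each end of a comparison with at least 20 CPM and 2-fold; others were picked after their values were seen. Some genes that this rule names are not reported here. The members and lists were chosen with earlier results of these data known. The ratios were tested on simulated data. Software was Python 3.11.15, numpy 2.4.6, pandas 2.3.3, scipy 1.17.1 and matplotlib 3.10.9.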

Additional observations from a re-analysis of the deposited data

Results flagged for a closer look

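Clusters that took no name enter no comparison, yet 4 of them with at least 20 cells carried PDGF genes well above the limit that a count of 0 allows. A cluster led by Avpr1a, Steap4 and Colec11 (45 cells of the Pdgfrb(BAC)eGFP/NG2dsRed line) had Pdgfa at 316 CPM (307 to 325 by counting) and Pdgfrb at 5404 CPM. An endothelial sub-cluster led by the chemokine gene Ccl5, Cd69 and Rgs1 (72 cells of the Cldn5(BAC)eGFP line) had Pdgfb at 175 CPM and Pdgfd at 73.5 CPM. T or NK cell markers summed to 127 CPM in it, and Cd8a and Nkg7 were among its leading genes. An endothelial sub-cluster of the mural line led by the pericyte genes Kcnj8, Vtn and Atp13a5 (45 cells) had Pdgfb at 351 CPM, Pdgfd at 89.8 CPM, Pdgfa at 23.5 CPM and Pdgfrb at 508 CPM. A mural sub-cluster led by the endothelial genes Slco2b1, Ly6a and Slco1c1 (33 cells) had Pdgfrb at 4171 CPM, Pdgfb at 55.3 CPM and Pdgfa at 22.4 CPM. In the last 2 the endothelial markers summed to 20229 and 5028 CPM and the pericyte markers to 7245 and 44657 CPM. No plate stood far from the other 3 of its class in the 15 cases checked, where chance would flag about 1 in 20.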

How the results depend on the processing

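No ratio of at least 2-fold changed sign under the alternatives run; the Pdgfb ratios between endothelial zones stayed near 0 on both sides, from -0.13 to 0.16 for arterial-like over capillary-like and -0.12 to 0.03 for arterial-like over venous-like cells with 1 plate left out. Of 88 values of the 6 main ratios 73 moved by less than the spread between plates, as did 296 of 334 other ratios and 284 of 298 levels, and 60 of 63 counts of pathway genes stayed within 1.5 times. The count for arterial-like against venous-like cells, 9, was 14 at clustering resolution 2, 5 at a pseudocount of 10 and 12 to 16 with 1 plate left out. The Pdgfa log2 ratio of fibroblast-like over pericyte-like cells, -6.16, was -4.25 at resolution 0.5, -4.42 at resolution 2, -4.80 with clusters from 0.5 of the genes, -8.29 and -3.18 at pseudocounts of 0.1 and 10, and -5.52 without the Gabrr1-led sub-cluster. That of smooth muscle-like over pericyte-like cells was 2.26 at resolution 0.5, 2.05 at resolution 2 and 2.24 without the sub-cluster. The Pdgfb log2 ratio of endothelial-like over pericyte-like cells, 4.59, was 6.61 at resolution 0.5, 6.01 at resolution 2, 3.63 at a pseudocount of 10 and 6.38 without the sub-cluster. The Pdgfrb log2 ratio of fibroblast-like over oligodendrocyte-like cells, 9.20, was 11.09 and 6.16 at pseudocounts of 0.1 and 10. The pseudocount acts on the class near 0 by construction; for the cluster settings the cause was not tested. The alternatives that leave out the sub-cluster, or keep endothelial-like cells of the Cldn5(BAC)eGFP line alone, were chosen after seeing the data. Few cells limit Pdgfc and Pdgfd in fibroblast-like cells, read in 5 and 24 of 72. No paired analysis was possible because each line is 1 sample and no test was made.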
